A study of Mus musculus with 4 samples.

Results

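The genes described here are the nuclear-encoded subunits of the mitochondrial respiratory chain, complexes I to IV, and of the ATP synthase, complex V. They were taken from the deposited table of read counts as the protein-coding genes whose symbols begin with Nduf (letters a, b, c, s or v and a digit), are Sdha to Sdhd, or begin with Uqcr, Cox4 to Cox8 or Atp5. This gave 85 of 38087 listed genes: 37 in complex I, 4 in complex II, 8 in complex III, 18 in complex IV and 18 in complex V. The symbols did not sort function without error. Atp5s, Atp5sl and Atp5l-ps1, which is described as a pseudogene, are not subunits; Cox7a2l is a supercomplex factor, and Ndufa4 is now counted with complex IV. The subunits Ndufab1 and Cyc1 carry other symbols and are given apart. The mitochondrially encoded subunits had 0 rows and were not analysed here.

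RNA was measured in 4 libraries from C57BL/6 mice at postnatal week 20. The 2 WT libraries, replicates 1 and 2, are labelled as cervical lymph node from wild-type animals. The 2 Becn1-M-KO libraries (KO below) come from mice that lack Becn1, an autophagy gene, in myeloid cells. The design text calls the mice tumor-bearing, the series title calls these samples B cell lymphomas, and their tissue label is cervical lymph node too. The promoter driving the deletion is not given in the sources used here, and whether a sample is 1 animal or a pool is not stated. Genotype and tumour cannot be told apart, and neither can sex, since the reads of Xist, 2088 and 5314 against 3 and 34, and of the Y-linked Eif2s3y, 1 and 6 against 767 and 1083, separated WT from KO. Whether the replicates of a group were separate animals is not stated, so the p-values take in only the spread among these libraries, and that spread may be technical.

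The WT replicate 1 library stood apart from the other 3. Its summed pan-B markers were 31.9 CPM (reads scaled to library size, here the plain total), where WT replicate 2 had 1690 and the KO libraries 2887 and 2798. Its summed T cell markers were 5.27 CPM on the same scale, against 647, 534 and 516. The defining genes of both lists, Cd79a with 5 reads and Cd3e with 1 read, were near 0 there. All 12 of 12 salivary gland and other epithelial markers were found, with sums of 373314 and 70436 CPM of library totals in the WT pair and of 137 and 3697 in the KO pair, where Aqp5 and Krt8 were at 0 in replicate 1. Spt1, Car6 and Bhlha15 had more reads in WT replicate 1. Dcpp2, with 155703 and 1030219 reads in the WT pair, and Amy1, with 127 and 76553, had more in WT replicate 2. Krt8 (2309 and 2217), Krt18 (5493 and 5210) and Epcam (2505 and 2830) were near to equal in the WT pair. Both WT libraries thus held many reads of gland epithelium. Of the macrophage markers, 6 of 7 were found, with a sum of 77.6 CPM of library totals in WT replicate 1 and of 894 to 1008 in the other libraries. These like sums hid differences between WT replicate 2 and KO. Lyz2 had 11896 reads in WT replicate 2 against 2598 and 3779 in the KO pair, and Mrc1 603 against 201 and 213. Csf1r had 2497 against 8587 and 9823, and Cd68 578 against 3063 and 4021. Fcgr1 had 114 against 463 and 469, and Emr1 289 against 816 and 1162. The 4 erythroid markers summed to 566 and 428 CPM of library totals in the WT pair against 91.2 and 60.8 in the KO pair. On the same scale the 4 proliferation markers summed to 7.99 and 75.3 CPM in the WT pair against 269 and 321 in the KO pair. The salivary gland gene Spt1 alone took 32.0% of the reads of WT replicate 1. Depth was 15604247 to 20067004 reads per library. Becn1 itself, in CPM scaled by the trimmed mean of M-values (TMM), was at 54.7 and 63.3 CPM in the WT pair against 49.4 and 53.2 in the KO pair (log2 difference -0.20, SE 0.21, edgeR adjusted p = 0.557), in tissue where myeloid cells are a part of all cells. The medians by complex are therefore given against each WT library, and most named genes by their value in each library. Other log2 differences are against both WT libraries together unless a WT library is named. The part of the salivary, lymphocyte, macrophage, erythroid, proliferation and sex differences in these results was not tested.

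Complex I takes electrons from NADH and complex II takes them from succinate; both pass them through ubiquinone to complex III and, by cytochrome c, to complex IV, which reduces oxygen. Complexes I, III and IV pump protons, and complex V uses the gradient to make ATP. Secretory epithelium, heart and muscle are rich in mitochondria, resting lymphocytes have few, and several complex IV subunits have separate forms in muscle, testis or lung. In bulk tissue, fewer cells of a type and less RNA per cell cannot be told apart.

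No member passed the threshold for a difference between KO and WT, an adjusted p of 0.05 in edgeR's quasi-likelihood test over 20695 genes. The test took 83 of the 85 members, since Cox6a2 and Cox8c had too few reads. The counts were 0 members higher and 0 lower, where 1.04% of all genes tested were called higher and 2.18% lower. The smallest adjusted p of a member was 0.093, for Cox7a1. With 2 libraries a group, a count of 0 does not show that the members were equal. At an unadjusted p under 0.05, 17 members were lower and 0 higher, against 16.4% and 10.5% of all genes tested. The 17 were 11 members of complex I, 2 of complex III and 4 of complex IV. DESeq2 called 0 members higher, against 6.4% of all genes, and 2 lower, Cox7a1 and Cox8b, against 11.7%. The count depended on which WT library was kept. Without WT replicate 1, edgeR called 1 member higher (Cox5a), against 20.9% of all genes, and 37 lower, against 22.8%. Without WT replicate 2 it called 3 higher (Cox4i2, Cox5a and Cox6c), against 32.3%, and 67 lower, against 32.5%. A WT group left with 1 library has no spread of its own and is assumed to vary like KO, so these counts do not cover differences between WT nodes.

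The direction was nearly uniform on the TMM scale although no member passed. With library totals, where the median of all genes was 0.60, that of the members was 0.08, and 30 of 83 members had a log2 difference below 0. All directions below are on the TMM scale. Of the 83 members, 77 had a log2 difference (KO minus WT) below 0, against 49.5% of all genes, and the median was -0.58 against 0.01 over all genes. In 69 of 83 members both KO libraries were below both WT libraries in TMM-scaled CPM, against 33.3% of all genes. Cox5a was the 1 member with both KO libraries above both WT libraries, against 34.3% of all genes. The 69 were 35 of 37 in complex I, 3 of 4 in complex II, 7 of 8 in complex III, 10 of 16 in complex IV and 14 of 18 in complex V. The members were thus low in KO in complexes I and III almost without exception, and least uniformly in complex IV.

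**Figure D1:**
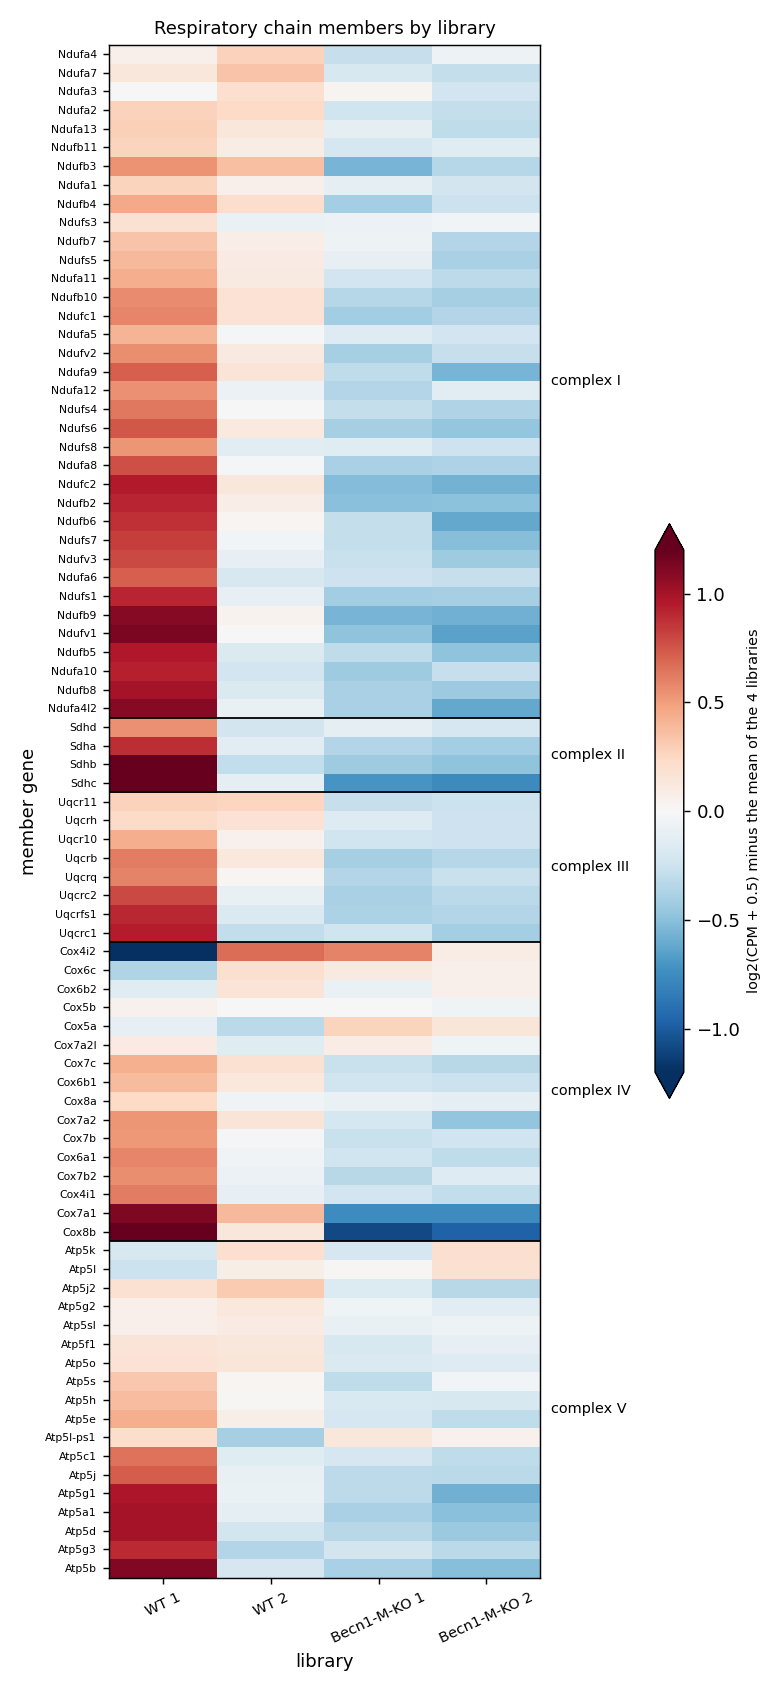
Level of 82 of the 83 tested members (rows, grouped by complex) in the 4 libraries (columns), as log2(CPM + 0.5) minus the mean of the row, with TMM-scaled CPM and colours saturating at the ends of the scale. WT replicate 1 is the highest library in most rows, both KO columns look alike, and Cox4i2, Cox6c and Cox5a are among the rows that depart from this.

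The size of the difference depended on the WT library. Against WT replicate 1, the mean of the KO libraries differed by a median of -0.82 on the log2(CPM + 0.5) scale over the 83 members, and against WT replicate 2 by a median of -0.29, where all genes had medians of 0.06 and -0.01. Both KO libraries were at least 2-fold below WT replicate 1 in 29 members, against 19.3% of all genes, and at least 2-fold above it in 1 member, Cox4i2, against 20.3%. Against WT replicate 2, 2 members, Cox7a1 and Cox8b, were at least 2-fold lower, against 10.6% of all genes, and 0 were at least 2-fold higher, against 7.75%. By sign alone, the KO mean lay below WT replicate 1 in 77 members and below WT replicate 2 in 76. The direction was thus shared by both WT libraries, and the 2-fold differences were nearly all against WT replicate 1.

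By complex, the median against WT replicate 1 was -0.96 in complex I, -1.46 in complex II, -0.94 in complex III, -0.68 in complex IV and -0.53 in complex V. Against WT replicate 2 it was -0.36 in complex I, -0.20 in complex II, -0.31 in complex III, -0.20 in complex IV and -0.22 in complex V. Complex II stood lowest against the first WT library and among the least different against the second. The members at least 2-fold below WT replicate 1 were 15 of complex I, 3 of complex II, 3 of complex III, 2 of complex IV and 6 of complex V. The WT libraries differed from each other by more than KO differed from WT replicate 2. WT replicate 1 was above WT replicate 2 in 72 of 83 members, by a median of 0.54, and by 1.26 in complex II. The KO libraries were within 0.2 of each other on the log2 scale in 68 members. No difference between complexes was tested.

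**Figure D2:**
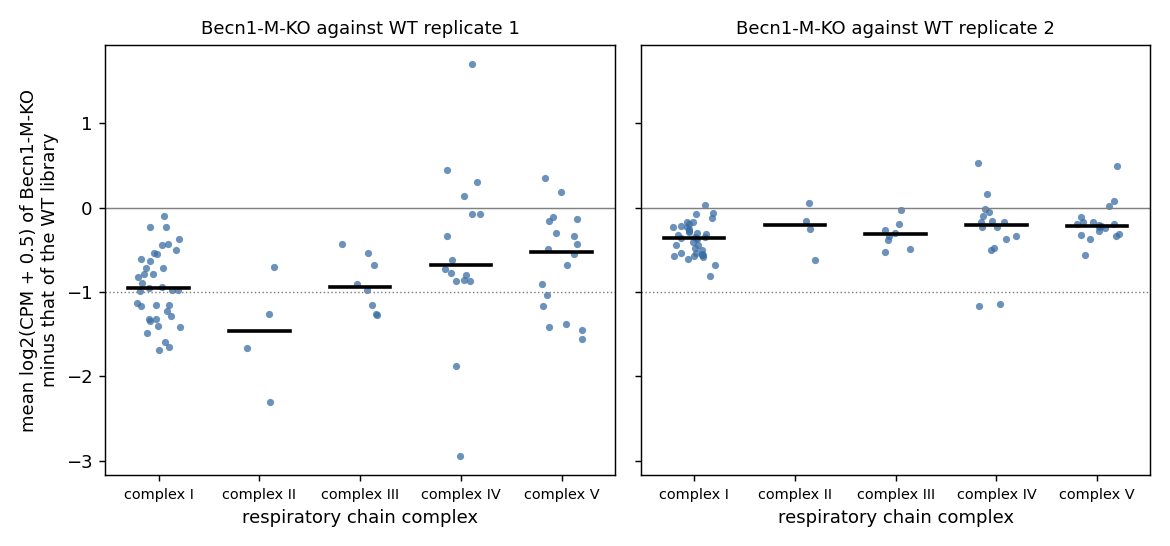
Mean log2(CPM + 0.5), with TMM-scaled CPM, of the 2 KO libraries minus that of WT replicate 1 (left) or WT replicate 2 (right) for each of the 83 tested members, by complex, with bars at the medians, a solid line at 0 and a dotted line at a 2-fold lower level. The medians run from -1.46 to -0.53 on the left and from -0.36 to -0.20 on the right, and Cox4i2 is the point highest on the left.

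How much of each library the members took depended on the scaling. As a share of all reads they made up 0.489% of WT replicate 1, 0.646% of WT replicate 2, and 0.600% and 0.580% of the KO libraries. On that scale WT replicate 1 was the lowest library and WT replicate 2 the highest. In TMM-scaled CPM the members summed to 9519 and 5497 in WT and 4698 and 4472 in KO, with a TMM factor of 0.514 for WT replicate 1 and of 1.18 to 1.30 for the other libraries. With library totals in place of TMM the members lay -0.52 from the median of all genes, against -0.59 under TMM. With library totals, 12 members had both KO libraries below both WT libraries (15.0% of all genes) and 12 had them above (51.0%).

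Promoter sequences are shown for 6 members, chosen after their values were seen: Ndufs6 and Sdha for the motifs they hold, Cox8a and Cox8b as a pair of isoforms, Cox7a1 for the smallest p, and Cox5a as the member that went the other way. Nuclear respiratory genes are known for promoters bound by NRF1, GABP (an ETS factor) and YY1. RefSeq windows of 250 bases before to 50 after the start (GRCm38.p6) were matched to 69 of the 85 members. The NRF1 letters, GCGCA, any base (N) and GCGC, were found on either strand in 16 of 69 (23.2%), against 6.92% of all 16659 promoters of this length. AAGATGGCG (YY1) was found in 7 (10.1%, against 2.06%), CCGGAAGT (ETS) in 5 (7.25%, against 5.53%) and TATAAA in 7 (10.1%, against 12.8%). Any of the first 3 was in 26 (37.7%, against 13.5%). Members with and without the NRF1 letters had the same median log2 difference, -0.57 and -0.57. The medians with and without were -0.80 and -0.56 for the YY1 letters, -0.39 and -0.61 for the ETS letters and -0.49 and -0.57 for TATAAA. Few members held these 3 motifs, and no difference was tested. The NRF1 letters were in 7 of 32 windows of complex I, 2 of 3 of complex II, 1 of 5 of complex III, 1 of 13 of complex IV and 5 of 16 of complex V. Capitals mark the motifs on either strand, 5′ to 3′ in the direction of the gene.
Ndufs6, chr13:73328433-73328732, minus strand: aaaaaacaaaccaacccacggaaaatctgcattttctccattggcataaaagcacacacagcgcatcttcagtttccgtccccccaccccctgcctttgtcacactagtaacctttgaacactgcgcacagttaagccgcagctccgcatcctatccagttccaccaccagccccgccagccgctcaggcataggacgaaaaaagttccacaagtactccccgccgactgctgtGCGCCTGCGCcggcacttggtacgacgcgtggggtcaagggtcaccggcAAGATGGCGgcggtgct
Sdha, chr13:74350191-74350490, minus strand: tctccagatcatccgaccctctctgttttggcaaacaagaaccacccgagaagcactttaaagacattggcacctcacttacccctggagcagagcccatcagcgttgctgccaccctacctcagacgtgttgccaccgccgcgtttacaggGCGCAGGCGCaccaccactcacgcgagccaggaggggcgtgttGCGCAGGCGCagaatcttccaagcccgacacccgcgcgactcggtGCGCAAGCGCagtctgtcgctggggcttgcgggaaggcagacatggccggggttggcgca
Cox8a, chr19:7217567-7217866, minus strand: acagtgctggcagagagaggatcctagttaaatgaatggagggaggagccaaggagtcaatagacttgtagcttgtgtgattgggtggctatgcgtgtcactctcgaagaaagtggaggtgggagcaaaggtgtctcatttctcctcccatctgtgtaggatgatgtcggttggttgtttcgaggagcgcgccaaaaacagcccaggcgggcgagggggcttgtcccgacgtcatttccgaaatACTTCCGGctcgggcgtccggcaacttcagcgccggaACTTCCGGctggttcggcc
Cox8b, chr7:140900397-140900696, minus strand: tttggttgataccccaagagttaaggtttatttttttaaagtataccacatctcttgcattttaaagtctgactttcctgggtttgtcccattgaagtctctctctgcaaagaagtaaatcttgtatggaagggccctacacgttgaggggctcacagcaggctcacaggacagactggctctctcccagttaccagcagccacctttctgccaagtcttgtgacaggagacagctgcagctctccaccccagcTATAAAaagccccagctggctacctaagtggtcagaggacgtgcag
Cox7a1, chr7:30183921-30184220, plus strand: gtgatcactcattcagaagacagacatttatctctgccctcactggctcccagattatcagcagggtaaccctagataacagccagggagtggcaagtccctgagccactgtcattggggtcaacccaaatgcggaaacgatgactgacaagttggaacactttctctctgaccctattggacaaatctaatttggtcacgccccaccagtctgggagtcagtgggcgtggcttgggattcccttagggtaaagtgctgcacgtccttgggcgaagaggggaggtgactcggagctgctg
Cox5a, chr9:57520982-57521281, plus strand: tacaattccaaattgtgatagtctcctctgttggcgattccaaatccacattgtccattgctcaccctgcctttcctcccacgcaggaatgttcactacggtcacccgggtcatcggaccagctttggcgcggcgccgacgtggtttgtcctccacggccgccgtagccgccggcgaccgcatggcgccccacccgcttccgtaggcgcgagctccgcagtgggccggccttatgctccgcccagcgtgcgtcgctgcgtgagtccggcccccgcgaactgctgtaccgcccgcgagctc
Counted from the start at +1, the Ndufs6 window held NRF1 letters at -16 to -7 and YY1 letters at 34 to 42. Sdha held NRF1 letters at -98 to -89, -55 to -46 and -10 to -1. Cox8a held ETS letters at -6 to 2 and at 32 to 39, and Cox8b only TATAAA at 5 to 10. Cox7a1 and Cox5a held none of the 4 motifs. The 4 matched windows of tissue-restricted complex IV members held 0 of the first 3 motifs and 2 held TATAAA. A match describes letters and not a bound site.

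In complex I lower values in KO were found in all modules. The median log2 difference was -0.70 over the 7 core members, -0.91 over the 10 Ndufb members of the distal membrane arm, and -0.58 over the 20 other accessory members. Against WT replicate 1 these medians were -0.90, -1.16 and -0.87, and against WT replicate 2 they were -0.31, -0.51 and -0.36. Ndufv1, which binds NADH and flavin, was at 186 and 84.8 CPM in the WT pair against 60.6 and 54.1 in the KO pair (log2 difference -1.24, SE 0.46, edgeR adjusted p = 0.192). Ndufs1, the largest iron-sulfur subunit of the same module, was at 93.9 and 46.4 CPM in the WT pair against 37.0 and 37.7 in the KO pair (log2 difference -0.91). Ndufv2, its smaller iron-sulfur partner, was at 71.1 and 51.9 CPM in the WT pair against 36.3 and 39.6 in the KO pair (-0.70). The groups did not overlap in these 3 genes, and for Ndufv1 and Ndufs1 WT replicate 1 was far above the other 3 libraries.

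Core subunits that carry electrons on to ubiquinone were also lower in both KO libraries. Ndufs7, which holds the last iron-sulfur cluster, was at 112 and 61.5 CPM in the WT pair against 51.6 and 44.0 in the KO pair (log2 difference -0.86). Ndufs8, with a further pair of clusters, was at 62.2 and 39.2 CPM in the WT pair against 39.0 and 36.1 in the KO pair (-0.43). The groups did not overlap in these 2, but the gap between WT replicate 2 and the nearer KO library was small in Ndufs8. Ndufs3, a core subunit without a cluster, was at 29.0 and 24.2 CPM in the WT pair against 24.4 and 24.99 in the KO pair (-0.11). Here both KO libraries lay between the WT libraries. Of the 2 complex I members whose groups overlapped, the other was Ndufa3.

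The accessory members with the smallest p were below both WT libraries. Ndufb3, of the distal membrane arm, was at 26.2 and 23.0 CPM in the WT pair against 11.9 and 14.0 in the KO pair (log2 difference -0.92, SE 0.22, edgeR adjusted p = 0.102). Ndufc1, of the membrane arm, was at 21.9 and 16.3 CPM in the WT pair against 10.7 and 11.2 in the KO pair (-0.80, SE 0.25, edgeR adjusted p = 0.153). Ndufc2, which partners it, was at 84.7 and 47.9 CPM in the WT pair against 30.3 and 29.3 in the KO pair (-1.15, SE 0.35, edgeR adjusted p = 0.142). Ndufb3 differed from WT replicate 2 by -0.81 and Ndufc2 by -0.68, the lowest values in complex I against that library. Ndufa13, an assembly-critical subunit also called GRIM-19, was at 104 and 94.4 CPM in the WT pair against 78.7 and 69.1 in the KO pair (-0.43), with no overlap. Ndufs6, a zinc-binding subunit whose promoter is shown above, was at 39.9 and 25.6 CPM in the WT pair against 17.9 and 17.0 in the KO pair (-0.91), with no overlap either. Over all 37 members sorted here by symbol, the log2 difference ran from -1.54, for Ndufa4l2, to -0.11, for Ndufs3. Ndufa4l2, a relative of Ndufa4, had only 15 to 25 reads a library.

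Complex II, which is also an enzyme of the citric acid cycle, had the largest median gap between the WT libraries of the 5 complexes. Sdhc, a membrane anchor, was at 267 and 82.7 CPM in the WT pair against 54.6 and 52.5 in the KO pair (log2 difference -1.70, SE 0.64, edgeR adjusted p = 0.195). Sdhb, the iron-sulfur subunit, was at 313 and 110 CPM in the WT pair against 101 and 96.9 in the KO pair (-1.10, SE 0.58). Sdha, the flavoprotein that oxidises succinate, was at 345 and 171 CPM in the WT pair against 146 and 141 in the KO pair (-0.85, SE 0.44). In these 3 genes both KO libraries lay below both WT libraries, and WT replicate 1 was the high one. Sdhd, the other anchor, was at 107 and 62.9 CPM in the WT pair against 67.4 and 63.7 in the KO pair (-0.37, SE 0.34), so that KO lay just above WT replicate 2. Against WT replicate 2 the 2 anchors thus stood apart, at -0.62 for Sdhc and 0.06 for Sdhd. Without WT replicate 1 the median of the 4 was -0.20, and without WT replicate 2 it was -1.48.

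In complex III the core and Rieske proteins were high in WT replicate 1, and the small subunits differed more evenly. Uqcrc1, a core protein, was at 229 and 96.9 CPM in the WT pair against 101 and 89.8 in the KO pair (log2 difference -0.77). Uqcrc2, the second core protein, was at 145 and 78.6 CPM in the WT pair against 63.5 and 66.8 in the KO pair (-0.78). Uqcrfs1, the Rieske iron-sulfur protein, was at 141 and 66.3 CPM in the WT pair against 57.6 and 58.5 in the KO pair (-0.83). Uqcrc1 was the 1 member of the complex whose groups overlapped, since KO replicate 1 lay above WT replicate 2. Cyc1, the cytochrome c1 subunit outside the symbol rule, was at 155 and 65.0 CPM in the WT pair against 59.6 and 59.6 in the KO pair (-0.88, SE 0.49), the same order of libraries.

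Among the small subunits of complex III, Uqcrb, which lies near the quinone-reducing site, was at 32.2 and 22.8 CPM in the WT pair against 15.7 and 16.4 in the KO pair (log2 difference -0.77, SE 0.26, edgeR adjusted p = 0.164). Uqcr11 was at 28.1 and 27.8 CPM in the WT pair against 19.0 and 19.2 in the KO pair (-0.55, SE 0.19, edgeR adjusted p = 0.169). Uqcrh, the hinge protein for cytochrome c1, was at 134 and 129 CPM in the WT pair against 102 and 96.3 in the KO pair (-0.40). In Uqcr11 and Uqcrh the WT libraries were nearly equal, unlike in the core proteins. Uqcr10 was at 56.5 and 43.4 CPM in the WT pair against 35.2 and 35.2 in the KO pair (-0.50), and Uqcrq at 142 and 95.9 CPM in the WT pair against 74.0 and 78.1 in the KO pair (-0.65). The groups did not overlap in any of the 5 small subunits.

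Complex IV divided into broadly expressed members, of which most were lower in KO, and members with tissue-restricted expression. Over the 11 broad members the median log2 difference was -0.51, with -0.63 against WT replicate 1 and -0.16 against WT replicate 2. Cox4i1, the regulatory subunit found in most tissues, was at 378 and 231 CPM in the WT pair against 211 and 202 in the KO pair (-0.56). Cox7c was at 44.0 and 37.0 CPM in the WT pair against 27.1 and 25.8 in the KO pair (-0.62, SE 0.20, edgeR adjusted p = 0.163). Cox7a2, the broadly expressed form of subunit VIIa, was at 75.2 and 57.9 CPM in the WT pair against 44.8 and 37.2 in the KO pair (-0.70, SE 0.25, edgeR adjusted p = 0.184). The groups did not overlap in these 3 genes. Cox6b1, Cox6a1, Cox7b and Cox8a likewise had both KO libraries below both WT libraries, with log2 differences of -0.51, -0.58, -0.53 and -0.20. Cox8a was close to even, at 156 and 129 CPM in the WT pair against 125 and 122 in the KO pair.

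Other broadly expressed members of complex IV did not share the lower level. Cox5a, an early-assembling subunit, was at 41.6 and 35.5 CPM in the WT pair against 53.8 and 49.3 in the KO pair (log2 difference 0.42, SE 0.21, edgeR adjusted p = 0.279). It was the 1 member with both KO libraries above both WT libraries. Its end overlaps the listed lincRNA AC164548.1, which had 208 and 354 reads in the WT pair against 521 and 575 in the KO pair, where Cox5a had 345, 746, 1072 and 1282, and reads of the overlap cannot be assigned if strand was not used. Cox5b, the zinc-binding subunit, was at 22.2 and 21.3 CPM in the WT pair against 21.4 and 20.6 in the KO pair (-0.05). Its 4 values differed by less than those of any other broad member named here. Cox6c was at 31.2 and 45.8 CPM in the WT pair against 43.4 and 41.8 in the KO pair (0.14), with WT replicate 1 as the low library. Cox7a2l, the supercomplex factor, was at 128 and 108 CPM in the WT pair against 128 and 116 in the KO pair (0.04). Cox5a, Cox5b and Cox6c were named after their values were seen.

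The forms of complex IV subunits known from heart and skeletal muscle were at low levels, and Cox7a1 and Cox8b were found mostly in WT. Cox7a1 had 31 and 43 reads in the WT pair against 13 and 17 in the KO pair, or 3.74 and 2.05 CPM against 0.653 and 0.654 CPM (log2 difference -2.11, SE 0.47, edgeR adjusted p = 0.093). Both KO libraries were below both WT libraries by at least 2-fold. Cox8b had 29 and 14 reads in the WT pair against 0 and 1 in the KO pair, or 3.49 and 0.666 CPM against 0 and 0.0384 CPM. Scaled by TMM, the 43 WT reads and 1 KO read gave a ratio of WT to KO of 67.4, with an exact 95% counting interval of 11.5 to 2723, and the gene passed the read filter through WT only (edgeR adjusted p = 0.103). The WT libraries differed in it, and the ratio was 30.6 (4.66 to 1294) without WT replicate 1 and 160.5 (26.6 to 6556) without WT replicate 2. Cox6a2, the third such form, had 1 and 17 reads in the WT pair against 6 and 11 in the KO pair and was not tested. It was lowest in WT replicate 1, where Cox8b was highest.

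These forms were also compared as a share of the reads of their pair, which does not depend on library scaling. Cox8b made up 2.19% of Cox8a and Cox8b reads in WT replicate 1 (exact 95% interval 1.47 to 3.14%) and 0.515% in WT replicate 2 (0.282 to 0.863%). In KO it made up 0%, with an upper bound of 0.148%, and 0.0315%, with an upper bound of 0.175%. Cox7a1 made up 4.73% and 3.42% of Cox7a1 and Cox7a2 reads in WT and 1.44% and 1.73% in KO. The intervals of WT replicate 2 (2.48 to 4.57%) and KO replicate 2 (1.01 to 2.75%) overlapped. Intervals cover counting error only. The skeletal muscle markers, 8 of 8 found, summed to 11.2 and 11.7 TMM-scaled CPM in the WT pair against 10.7 and 12.3 in the KO pair. The near equality of the sums rested on Ckm in WT replicate 1. Mylpf, Tnnt3 and Acta1 were lowest in WT replicate 1, at 0.964, 0.362 and 1.57 CPM, against 2.76, 2.09 and 2.81 in WT replicate 2. They were at 2.56, 1.81 and 3.46 in KO replicate 1. Tnni2 and Myh4 were at 0 in WT replicate 1, while Actn3 and Myh1 were not lowest there. Within that list Ckm, the muscle creatine kinase, was at 7.11 and 1.33 CPM in the WT pair against 0.753 and 0.807 in the KO pair. The 4 heart and slow muscle markers summed to 2.77 and 4.19 CPM in the WT pair against 1.76 and 1.999 in the KO pair. Most of the WT sums came from Tnnt1, at 1.93 and 2.71 CPM in the WT pair against 0.803 and 0.846 in the KO pair. Tnni1 was also higher in WT, while Myh7 and Myl2 were lowest in WT replicate 1. The 5 fat markers summed to 11.6 and 26.2 CPM against 5.57 and 4.15, while the brown fat gene Ucp1 had 0 reads in WT and 2 in each KO library. The salivary gland and other epithelial list was higher in WT, as Cox8b was, at the sums given above; the part of these lists in the result was not tested.

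**Figure D3:**
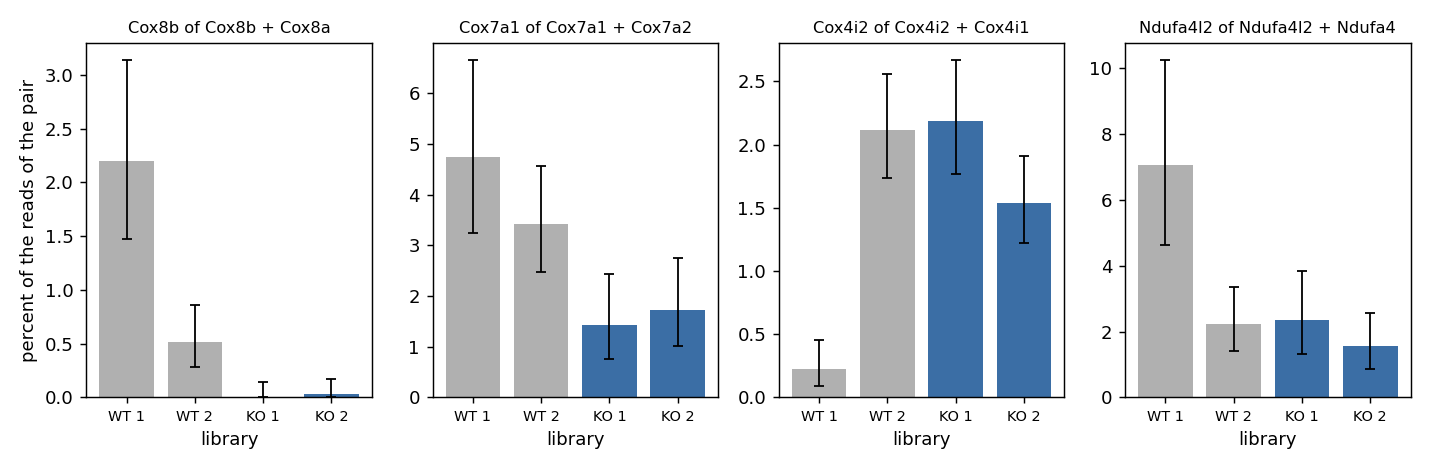
Share of reads, in percent, that the second form of a subunit took of the reads of its pair in each library (grey WT, blue KO), with exact 95% binomial intervals for counting error. Cox8b reaches 2.19% in WT replicate 1 and is at 0 and 0.0315% in KO, while Cox4i2 is low in WT replicate 1 only, at 0.223%.

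Cox4i2, a form of subunit IV enriched in lung and in perivascular cells, had the reverse of the usual order. It had 7 and 105 reads in the WT pair against 94 and 82 in the KO pair, or 0.844 and 4.998 CPM against 4.72 and 3.15 CPM (log2 difference 0.37, SE 0.86). WT replicate 1 was low and the other 3 libraries were higher, with 0.223% of Cox4i1 and Cox4i2 reads there against 2.12%, 2.19% and 1.54%. The list of 5 pericyte and smooth muscle markers did not follow Cox4i2. Its sums were 571 and 414 CPM in the WT pair against 177 and 148 in the KO pair. Rgs5, a pericyte gene in the list, was at 26.0 and 41.7 CPM in the WT pair against 97.7 and 95.4 in the KO pair. The other members of the list, Acta2, Myh11, Notch3 and Cspg4, were highest in WT replicate 1, where Cox4i2 was lowest. Ndufa4l2, the hypoxia-inducible relative of Ndufa4, took 7.06% of the reads of that pair in WT replicate 1 and 2.22%, 2.35% and 1.56% in the other libraries. Its CPM were 3.01 and 1.05 against 0.753 and 0.577 (-1.54, SE 0.66, edgeR adjusted p = 0.235), while Ndufa4 was at 39.6 and 46.1 CPM in the WT pair against 31.3 and 36.4 in the KO pair (-0.34). Cox6b2, Cox7b2 and Cox8c, known from testis, had 0 to 20 reads in every library, and the 2 that were tested, Cox6b2 and Cox7b2, were not called.

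Complex V held the most abundant members, and those of its catalytic F1 part were high in WT replicate 1. Per kilobase of transcript, Atp5e, Cox4i1 and Atp5b were among the 4 highest members in every library, with Atp5b at 650 CPM per kilobase in WT replicate 1 and 262, 230 and 212 in the others. Atp5b, the catalytic beta subunit, was at 1246 and 502 CPM in the WT pair against 440 and 406 in the KO pair (log2 difference -1.05, SE 0.58, edgeR adjusted p = 0.318). Atp5a1, the alpha subunit, was at 974 and 452 CPM in the WT pair against 371 and 343 in the KO pair (-0.997, SE 0.51). Both KO libraries were below both WT libraries, and WT replicate 1 was more than 2-fold above the other 3. Atp5d, the delta subunit of the rotor, was at 328 and 141 CPM in the WT pair against 130 and 121 in the KO pair (-0.90), and Atp5c1, the gamma shaft, at 156 and 89.1 CPM in the WT pair against 85.7 and 79.5 in the KO pair (-0.57). Over the 5 F1 members the median log2 difference was -0.90, and WT replicate 1 exceeded WT replicate 2 by a median of 1.11. The median of the F1 members was -1.38 against WT replicate 1 and -0.25 against WT replicate 2.

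The membrane part and stalk of complex V differed less, with a median log2 difference of -0.36 over 10 members. It was -0.38 against WT replicate 1 and -0.23 against WT replicate 2. Atp5j, coupling factor 6, was at 105 and 59.9 CPM in the WT pair against 51.0 and 50.7 in the KO pair (-0.70), and overlaps Gabpa on the genome. Atp5j2, the f subunit, was at 75.8 and 83.2 CPM in the WT pair against 59.8 and 53.0 in the KO pair (-0.50). The groups did not overlap in these 2 genes, but in Atp5j2 WT replicate 2 was the higher WT library. Atp5l, the g subunit, was at 9.28 and 11.8 CPM in the WT pair against 11.3 and 12.8 in the KO pair (0.19) with overlapping groups. It and Atp5l-ps1, at 0.18, were the members of complex V with a value above 0. Over all 18 members of the complex the log2 difference ran from -1.05, for Atp5b, to 0.19, for Atp5l.

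The 3 genes Atp5g1, Atp5g2 and Atp5g3 encode the same mature c subunit of the rotor ring with different import sequences, and they differed in pattern. Atp5g1 was at 57.0 and 27.4 CPM in the WT pair against 23.1 and 19.3 in the KO pair (log2 difference -0.99, SE 0.42, edgeR adjusted p = 0.234). Atp5g3 was at 288 and 120 CPM in the WT pair against 133 and 123 in the KO pair (-0.68). Atp5g2 was at 26.4 and 27.7 CPM in the WT pair against 24.4 and 22.9 in the KO pair (-0.19). The KO libraries were below both WT libraries for Atp5g1 and Atp5g2 and above WT replicate 2 for Atp5g3. As a share of the reads of the set, Atp5g1 took 15.3% and 15.6% in WT and 12.8% and 11.7% in KO, where the intervals of WT replicate 1 (14.1 to 16.7%) and of WT replicate 2 (14.5 to 16.8%) lay above those of KO (11.8 to 14.0% and 10.7 to 12.7%). Atp5g2 took 7.11% in WT replicate 1 and 15.8%, 13.5% and 13.9% in the others. Atp5g3 took 77.5% and 68.6% in WT and 73.6% and 74.4% in KO. The share of Atp5g1 was thus lower in both KO libraries on either WT reference, a description over 2 libraries a group.

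The difference between the 2 WT libraries went with transcript length among the members. Over 82 members with a transcript length, the difference WT replicate 1 minus WT replicate 2 had a Spearman rho of 0.43 and a Pearson r of 0.40 with log2 length, as a description across genes that share the same libraries. Over the 15449 protein-coding genes tested rho was 0.00457. The median difference was 0.28 in the 29 members under 600 bases, 0.41 in the 26 of 600 to 1000 bases and 0.84 in the 27 over 1000 bases. All protein-coding genes in these classes had medians of -0.17, 0.01 and 0.01. The difference KO minus WT replicate 2 was more even over the classes, at -0.34, -0.28 and -0.25. All protein-coding genes had medians of -0.16, -0.12 and -0.02 here, so short genes in general were also lower in KO than in WT replicate 2. Average level had a rho of 0.41 with the difference between WT libraries, so length and level were not separated. Core and catalytic subunits such as Sdhb, Atp5b and Uqcrc1 are among the longer members, and the small accessory subunits among the shorter.

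**Figure D4:**
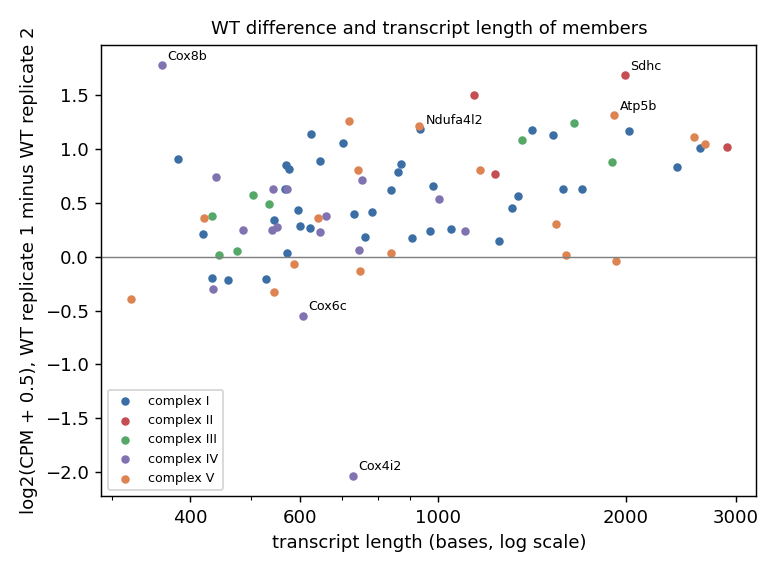
Difference in log2(CPM + 0.5) between WT replicates 1 and 2 against transcript length (bases, log axis) for 82 members, coloured by complex. Long members such as Sdhc and Atp5b lie high, with rho 0.43 over all points, and Cox8b and Cox4i2 lie away from the rest.

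Genes that build or feed the chain were described by the same counts, with 0 called in each list in either direction by edgeR. At an unadjusted p under 0.05, 1 citric acid cycle gene, 8 mitochondrial ribosomal protein genes, 5 assembly factors and 1 regulator were lower, and 1 assembly factor was higher, where 16.4% of all genes tested were lower and 10.5% higher. All 13 of 13 citric acid cycle genes had a log2 difference below 0, with a median of -0.77, but 8 of 13 lay below WT replicate 2. Suclg2, a succinyl-CoA ligase subunit, was at 41.3 and 29.0 CPM in the WT pair against 15.3 and 14.8 in the KO pair (-1.22, SE 0.26, edgeR adjusted p = 0.087), and Cs, citrate synthase, at 146 and 90.8 CPM in the WT pair against 108 and 105 in the KO pair (-0.15). Of 77 mitochondrial ribosomal protein genes, 65 had values below 0, with a median of -0.27. That median was -0.39 against WT replicate 1 and -0.11 against WT replicate 2. Of 32 assembly factors found, 22 had values below 0, with a median of -0.29, 17 had both KO libraries below both WT libraries and 9 had them above. Their median was -0.32 against WT replicate 1 and -0.12 against WT replicate 2. Of all genes tested, 49.5% had values below 0, 33.3% had both KO libraries below both WT libraries and 34.3% had them above. Lyrm7, which matures the Rieske protein, was at 5.78 and 4.66 CPM in the WT pair against 1.76 and 1.77 in the KO pair (-1.56, edgeR adjusted p = 0.084), and Coa3, a translation factor for complex IV, had a value of -1.29. Coa5, Sdhaf2 and Cox17, a copper carrier to complex IV, had values of 0.72, 0.80 and 0.55.

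Regulators of mitochondrial biogenesis, 16 found, had a median log2 difference of 0.15, and 5 of 16 had values below 0, against 49.5% of all genes tested. Their median was 0.21 against WT replicate 1 and 0.03 against WT replicate 2. Ppargc1a, the coactivator that drives respiratory genes in energy-demanding tissue, was at 48.9 and 11.3 CPM in the WT pair against 1.15 and 1.73 in the KO pair (-4.36, SE 0.89, edgeR adjusted p = 0.082). Both KO libraries were far below both WT libraries, with WT replicate 1 the highest. That order was also seen in many members, and a link of them to Ppargc1a was not tested. Esrra, a nuclear receptor partnered by it, was at 94.7 and 45.1 CPM in the WT pair against 43.5 and 42.8 in the KO pair (-0.70). The related coactivators Ppargc1b and Pprc1 had values of 0.49 and 0.45. Nrf1 was at 24.7 and 43.8 CPM in the WT pair against 37.2 and 35.5 in the KO pair (log2 difference 0.08), Gabpa at 34.3 and 35.0 CPM against 31.6 and 34.1 CPM (-0.08), and Tfam, the mitochondrial DNA packaging factor, at 26.4 and 33.3 CPM against 36.0 and 31.4 CPM (0.17). Yy1 was at 56.2 and 41.2 CPM against 63.2 and 56.0 CPM (0.29). The groups overlapped for Nrf1, Tfam and Yy1.

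The authors' deposited table of comparisons lists 5511 genes with an unadjusted p under 0.05, 7.95% of the 38087 listed genes as lower and 6.52% as higher. Of the 38087, 30898 had a read, so these shares are not on the base of the 20695 genes tested above. It holds 18 members, 17 lower and 1 higher. The lowest values there, in the authors' deposited table, were a log2 fold change of -4.59 for Cox8b and -3.07 for Cox7a1, and the smallest p was 4.1e-04, for Ndufa2 at -0.52. The authors' deposited table gives Cox5a as the 1 higher member, at 0.73 (p = 0.021). The 2 shorter gene lists that the authors deposited hold 0 members.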

How the data were processed

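The authors deposited whole-number read counts per gene, not normalized, per the file headers. The submitters' processing notes name the build mm10 and DESeq2 1.62, without a role. The aligner, the counter and its strand setting were not given in the sources used here. Protocols in the labels describe Ion Torrent libraries of total RNA after rRNA depletion. The listed length of each of the 38087 genes equals the whole span of the gene, introns included, and 27 of 85 members overlap another listed gene with reads. In the authors' deposited comparison table each gene has a log2 fold change with a p-value, not adjusted. The deposited log2 values by library and 8 more per-sample columns, on coverage, were not used.

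The main test was edgeR's quasi-likelihood test (edgeR 4.0.16, R 4.3.3) with TMM factors. Its filter, filterByExpr at 10 reads and 15 in total, left 20695 genes, over which p-values were adjusted by Benjamini-Hochberg. The test was checked on simulated data, where it called part of the largest changes and none of the smaller ones, so a count of 0 does not show that members were equal. The SE is the log2 difference over the square root of F. CPM are TMM-scaled unless said to be of library totals, and 0.5 CPM was added before logs. Where 0 reads were counted, up to 3 are allowed, which is 0.149 to 0.192 CPM of library totals by library, not TMM-scaled. Transcript length is the median of basic protein-coding transcripts in GENCODE M21. Alternatives were DESeq2 1.42.0, limma-voom (limma 3.58.1), other scalings and filters, a replicate block, and leaving out each library. The members named were all past the threshold (0) and, in each complex, the 3 with the smallest p and the 3 most abundant, plus the core or catalytic members and the isoform pairs; others were named after their values were seen. Of the members this rule names, 1 is not reported here. The members and lists were chosen with earlier results of these data known.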

Additional observations from a re-analysis of the deposited data

How the results depend on the processing

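Depth limits members with few reads, such as Cox8b with 0 to 29 reads a library; for the others the WT libraries differed by a median of 0.54. The counts of called members stayed at 0 under DESeq2 size factors, library totals, totals without genes over 0.5%, no filter, a stricter filter, limma-voom and the replicate block, with 14, 1, 20, 13, 16, 16 and 5 members lower at an unadjusted p under 0.05, where 7.29% of all genes were lower with library totals and 12.5 to 17.3% under the others. Library totals and the replicate block called 0 of all genes, and the other 5 called 0.865 to 1.75% of them higher and 1.9 to 3.84% lower. DESeq2 called 2 lower (Cox7a1 and Cox8b), against 11.7% of all genes, and 0 higher. With library totals 30 of 83 members had a log2 difference below 0, against 77 under TMM. The members listed next are only a part of those above 0 with library totals. Library totals moved the medians of complexes I to V to 0.023, -0.11, 0.067, 0.19 and 0.24 and the log2 differences of these members above 0: Atp5c1 0.20, Atp5g2 0.40, Atp5g3 0.18, Atp5j 0.072, Atp5j2 0.084, Cox4i1 0.19, Cox5b 0.57, Cox6a1 0.16, Cox6b1 0.15, Cox6b2 0.46, Cox7b 0.18, Cox7c 0.039, Cox8a 0.46, Ndufa13 0.21, Ndufa4 0.22, Ndufs3 0.55, Ndufs8 0.31, Ndufv2 0.0013, Sdhd 0.39, Uqcr10 0.18, Uqcr11 0.061, Uqcrc1 0.081, Uqcrc2 0.0042, Uqcrh 0.21 and Uqcrq 0.074. Nothing in the labels ties equal replicate numbers, and deviations of same-numbered libraries had a correlation of -0.11. The replicate block gave medians of -0.69, -0.84, -0.63, -0.50 and -0.44. The crossed replicate block, chosen after seeing the data, called 1 member lower, with 202 genes higher and 643 lower in all (3.11% of genes tested). Leaving out 1 library each gave 0 to 3 members higher and 0 to 67 lower. Without WT replicate 1 these were 1 higher and 37 lower (20.9% and 22.8% of all genes), without WT replicate 2 they were 3 higher (Cox4i2, Cox5a and Cox6c) and 67 lower (32.3% and 32.5%), and without either KO library 0 and 0, where 0 of all genes were called. At an unadjusted p under 0.05, 1 member was lower without either KO library, against 6.07% and 6.26% of all genes. A group left with 1 library is assumed to vary like the other. The medians ranged from -0.98 to -0.36 in complex I, -1.48 to -0.20 in complex II, -0.97 to -0.31 in complex III, -0.70 to -0.25 in complex IV and -0.55 to -0.21 in complex V. Leaving out 1 library changed the sign of Atp5g3 (-1.19 to 0.088, other sign without WT replicate 1), Cox4i2 (-0.36 to 2.18, other sign without WT replicate 1), Cox6b2 (-0.25 to 0.23, other sign without WT replicate 2 and without KO replicate 1), Cox6c (-0.10 to 0.43, other sign without WT replicate 1), Cox7a2l (-0.092 to 0.17, other sign without WT replicate 2 and without KO replicate 1), Ndufs3 (-0.25 to 0.035, other sign without WT replicate 1) and Sdhd (-0.73 to 0.064, other sign without WT replicate 1). That list may leave out other members whose sign changed. The medians and counts over members without an overlapping gene kept their direction and side of the threshold.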
